A study of Mus musculus with 6 samples.

Results

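The expression of 10 genes that respond to hypoxia-inducible factor (HIF) and lie outside glycolysis was followed in N2a cells, a mouse neuroblastoma line, after knockdown of *Npm1*. They are *Bnip3*, *Bnip3l*, *P4ha1*, *Ero1l*, *Vegfa*, *Egln1*, *Egln3*, *Ndrg1*, *Ddit4* and *Higd1a*, 10 of 26656 genes in the deposited table, where *Ero1l* is listed as *Ero1a*. They were picked by name with results of the same comparison, NPM1 KD against control (CTR), already known, so their differences are given as a description with no p-value. SEs and calls from the fit over all genes are printed for scale, and nothing is read from them. The 3 NPM1 KD libraries came from cells transfected with the plasmid pLKO.1-shNpm1 and the 3 CTR libraries from cells transfected with pLKO.1-shCTR, which carries an shRNA without a target, and RNA was taken after 72 h. The treatment protocol describes puromycin at 9.3 µg/ml from 24 h after transfection for the knockdown experiments. All cells are labelled as wild type, the knockdown rests on 1 shRNA construct, and the design text gives 3 biological replicates per condition where the treatment protocol gives 2. If some libraries came from one transfection, p-values measure the spread between these samples, which may be technical. In such bulk samples, fewer cells of a type and less RNA per cell cannot be told apart.

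HIF is a pair of proteins, an oxygen-regulated alpha subunit and the stable partner ARNT. With oxygen present, the prolyl hydroxylases encoded by *Egln1*, *Egln2* and *Egln3* mark the alpha subunit, and the VHL ubiquitin ligase then sends it to the proteasome. When oxygen or hydroxylase activity is low, HIF accumulates and binds short core motifs near genes for glycolysis, removal of mitochondria, vessel growth, collagen maturation and the hydroxylases themselves.

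Of the 10 genes, 8 had enough signal to be compared. Each of the 8 had a lower mean in NPM1 KD than in CTR, against 27.4% of all genes tested. The mitophagy receptors *Bnip3* and *Bnip3l* and the angiogenic ligand *Vegfa* were lower in every NPM1 KD library than in any CTR library, by 1 to 1.33 on the log2 scale. Groups lay apart on the lower side in 3.41% of all genes tested. The 10 genes were picked with this contrast known, so these counts are a description. The collagen prolyl hydroxylase subunit *P4ha1* differed by −0.67 and the other 4 by −0.33, with overlapping groups. The remaining pair, *Egln3* and *Ndrg1*, held 4 and 8 reads in all 6 libraries together.

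The deposited unit is the regularized log (rlog), the log2 of a count after scaling by library size, with the differences of sparsely read genes pulled towards their mean. Every value of 1 or more in size was deposited as a whole number. Genes listed at 5 in all 6 libraries had log2 mean normalized counts between 4.65 and 5.34 (1st and 99th percentiles over 555 genes), which is the range of rounding to the nearest whole number. A difference between group means can therefore be off by up to 1 in either direction, and these limits are given beside the values below. Relative depth, read off the mean normalized counts of single-read genes, was 1.11 to 1.30 in CTR and 0.784 to 0.961 in NPM1 KD, so every knockdown library was the shallower one. The values are not set per transcript length, and levels of different genes are set against each other only in filters and rankings.

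*Npm1*, the target of the shRNA, was at 10 in each CTR library and at 8 in each NPM1 KD library (difference −2, SE 0.33, limma adjusted p = 3.23e-06). Of 5752 genes whose rlog values averaged 3.32 (the log2 of 10) or more, limma called 24 lower and 4 higher in NPM1 KD at an adjusted p below 0.05. Of 14 markers of sympathoadrenal neuroblastoma cells 9 were in the test, among them *Hand2*. Of these 9, 7 had a lower mean in NPM1 KD, 1 an equal and 1 a higher one, and in 5 every NPM1 KD library was lower than every CTR library. Over all tested genes 27.4% had a lower mean, 3.41% had groups apart on the lower side and 0.417% were called lower. *Chga* (−1.33) and *Chgb* (−1.67) were called lower, while *Stmn2* and *Tubb3* differed by −1 (limma adjusted p = 0.0791 each), the same step as *Bnip3l* and *Vegfa*. The part of these neuronal markers in the other results was not tested. None of the 18 markers of fibroblasts, leukocytes, epithelium, glia and endothelium reached the test, and the highest mean among them was 2.

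The promoters are shown first, because HIF acts through a short core motif in DNA and promoter sequence is independent of the expression values. RefSeq promoters (build GRCm38.p6, 250 bases before to 50 after the start) were at hand for 8 of the 10 genes, with 2 starts for *Vegfa*, and *Bnip3l* and *Ndrg1* had no entry. The letters ACGTG and GCGTG were searched on both strands. The stretches before the start are printed for *Bnip3*, which had the most matches, for *P4ha1*, for the upstream start of *Vegfa*, which had none, and for *Ddit4*, whose difference was −0.33. They run 5′ to 3′ on the strand of the gene, stop before the first base that GENCODE vM21 places in an exon, and have matches in capitals.
Bnip3, chr7:138909520-138909756, minus strand: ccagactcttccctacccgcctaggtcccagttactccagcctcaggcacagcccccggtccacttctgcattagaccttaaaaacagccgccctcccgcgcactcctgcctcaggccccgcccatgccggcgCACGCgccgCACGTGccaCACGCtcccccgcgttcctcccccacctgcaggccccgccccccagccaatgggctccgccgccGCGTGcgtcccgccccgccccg
P4ha1, chr10:59323046-59323295, plus strand: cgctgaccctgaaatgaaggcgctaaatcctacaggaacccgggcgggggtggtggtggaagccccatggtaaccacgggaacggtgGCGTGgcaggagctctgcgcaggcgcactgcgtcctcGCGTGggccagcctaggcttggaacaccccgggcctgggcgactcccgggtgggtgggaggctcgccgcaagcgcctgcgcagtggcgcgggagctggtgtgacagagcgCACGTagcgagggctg
Vegfa upstream start, chr17:46032378-46032627, minus strand: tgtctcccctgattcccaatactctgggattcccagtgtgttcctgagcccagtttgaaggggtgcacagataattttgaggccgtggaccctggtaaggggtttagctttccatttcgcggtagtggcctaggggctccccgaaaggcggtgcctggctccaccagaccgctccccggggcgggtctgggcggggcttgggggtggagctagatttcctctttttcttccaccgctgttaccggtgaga
Ddit4, chr10:59951835-59952020, minus strand: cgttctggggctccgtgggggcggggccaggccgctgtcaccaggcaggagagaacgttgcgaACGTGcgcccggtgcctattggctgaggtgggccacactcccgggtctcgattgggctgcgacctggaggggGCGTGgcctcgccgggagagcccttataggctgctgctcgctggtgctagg

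In the *Bnip3* stretch 5 matches lay between −117 and −35 from the start, and the run CACGTG at −108 counts on both strands, so that its 2 matches share bases. *P4ha1* had matches at −163, −126 and −16, and *Ddit4* at −187 and −115. At least 1 match was found in 8 of the 9 promoters (88.9%), against 43.8% of all 32851 promoters and 66.4% of the 5460 promoters of tested genes. For ACGTG alone the share was 88.9%, against 19.6% of all promoters and 28.1% of those of tested genes, and for GCGTG it was 77.8%, against 32.4% and 54.2%. The median GC content was 70.3% in the 9 promoters, 61.7% in promoters of tested genes and 52.7% in all promoters, and its part in these shares was not tested. Of the 20 matches before a start, 5 lay wholly in an annotated exon, among them both matches at the downstream start of *Vegfa* and both at *Higd1a*. A match says only that the letters occur in the window, and sequence outside it was not searched. For both starts of *Vegfa* and for *Egln3*, a stretch just after the start was not found in any GENCODE vM21 transcript of the gene. As known HIF targets, these genes were picked for a property linked to the motif.

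**Figure D1:**
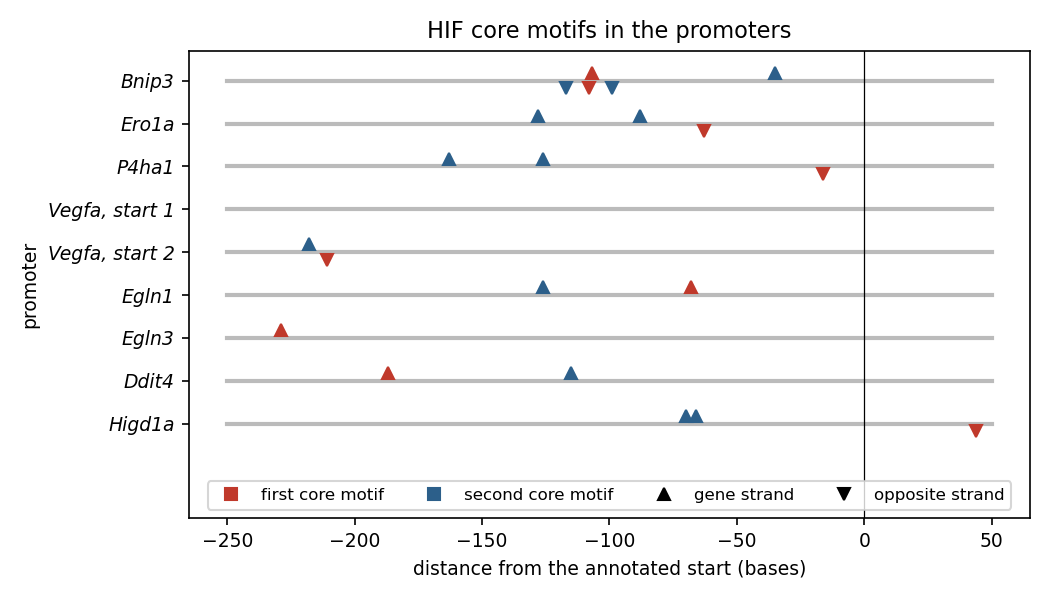
Matches to the first core motif (ACGTG, red) and the second (GCGTG, blue) in the 9 RefSeq promoters, plotted by distance of the first base from the annotated start in bases, with triangles pointing up for the strand of the gene and down for the opposite strand. *Bnip3* holds 5 matches, the upstream start of *Vegfa* holds 0, and the other 7 promoters hold 1 to 3.

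*Bnip3* and *Bnip3l* encode related proteins of the outer mitochondrial membrane that recruit the autophagy machinery and so mark mitochondria for removal. *Bnip3* had rlog values of 7, 6 and 6 in CTR replicates 1 to 3 and of 5 in each NPM1 KD library. Its difference was −1.33 (SE 0.34, 6.33 ± 0.58 against 5 ± 0, SD, n = 3), and rounding allows a range of −2.33 to −0.33. Among the tested members, only *Bnip3* thus had a difference that stays below 0 over the whole range that rounding allows. Of all 5752 tested genes, 18 had a difference of −1.33, and 2, 3 and 2 had −1.67, −2 and −2.33. Without CTR replicate 1 the *Bnip3* difference was −1, equal to that of *Bnip3l*, whose range from rounding ends at 0. *Bnip3l* had 6 in each CTR library and 5 in each NPM1 KD library, a difference of −1 (SE 0.34) with a range of −2 to 0 from rounding. The groups of both genes did not overlap. The processed pseudogene *Bnip3l-ps* shares 82.9% of its words of 31 bases with *Bnip3l* transcripts, and reads of the 2 genes may have been split between them, so the *Bnip3l* values are uncertain. The pseudogenes *Gm16439* and *Gm6532* share 74.9% and 64.1% of their words with *Bnip3*, and *Gm9790* shares 76.0% with *Higd1a*. These pseudogenes have no values here, and the *Bnip3* and *Higd1a* values carry the same doubt. *Bnip3l-ps* was at 6, 6 and 5 in CTR and at 5 in each NPM1 KD library, a difference of −0.67 (SE 0.33) that did not pass the test (limma adjusted p = 0.33).

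*Vegfa* encodes the main growth factor for blood vessels. It was at 5 in each CTR library and at 4 in each NPM1 KD library, so the groups did not overlap. The difference was −1 (SE 0.33), with −2 to 0 allowed by rounding, at a mean normalized count of 24.8 as the authors give it.

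*P4ha1* encodes a catalytic subunit of collagen prolyl 4-hydroxylase, which needs oxygen to stabilize collagen. Its values were 6, 6 and 5 in CTR and 5 in each NPM1 KD library, so that CTR replicate 3 equalled the knockdown libraries. The difference was −0.67 (SE 0.33), with a range of −1.67 to 0.33, and it was −1 without CTR replicate 3. *Ero1a* encodes an oxidase of the endoplasmic reticulum (ER) that passes electrons to oxygen during disulfide formation. It was at 7, 6 and 7 in CTR and at 7, 6 and 6 in NPM1 KD, a difference of −0.33 (SE 0.35, range −1.33 to 0.67). For *Ero1a*, 1 NPM1 KD library was as high as the highest CTR libraries. Its difference was −0.67 without CTR replicate 2 or NPM1 KD replicate 1, and −0.17 without any 1 of the other 4 libraries.

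Of the oxygen sensors, *Egln1* encodes PHD2, the main HIF prolyl hydroxylase, and *Egln3* encodes PHD3. *Egln1* was at 6, 5 and 6 in CTR and at 6, 5 and 5 in NPM1 KD, a difference of −0.33 (SE 0.34, range −1.33 to 0.67) that took the same values as *Ero1a*, −0.67 to −0.17, with a library left out. *Egln3* was near the floor, with rlog values of −0.750, −0.753 and −0.677 in CTR, against −0.805, −0.808 and −0.812 in NPM1 KD. The mean normalized count of *Egln3* matched 1 combination of whole reads, namely 1, 1 and 2 reads in CTR and 0 in each NPM1 KD library. A difference was not detectable at this depth, and no fold is given. The third hydroxylase gene, *Egln2*, was listed at 1 in all 6 libraries and was too low to be tested.

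*Ddit4* encodes an inhibitor of the growth kinase complex TORC1 (REDD1), *Ndrg1* a stress-induced protein linked to growth arrest, and *Higd1a* a small mitochondrial protein that associates with the respiratory chain. *Ddit4* was at 8 in each CTR library and at 8, 7 and 8 in NPM1 KD (difference −0.33, SE 0.34). *Higd1a* was at 8, 7 and 7 in CTR and at 7 in each NPM1 KD library (difference −0.33, SE 0.35). In both genes 1 library of 6 differed from the others, and rounding allows −1.33 to 0.67. Without that library, NPM1 KD replicate 2 for *Ddit4* and CTR replicate 1 for *Higd1a*, the difference was 0. *Ndrg1* had rlog values of 0.403, 0.093 and 0.172 in CTR, against 0.111, 0.109 and 0.259 in NPM1 KD. These came from 5, 0 and 1 reads in CTR and 0, 0 and 2 reads in NPM1 KD, so that 5 of the 8 *Ndrg1* reads lay in CTR replicate 1.

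**Figure D2:**
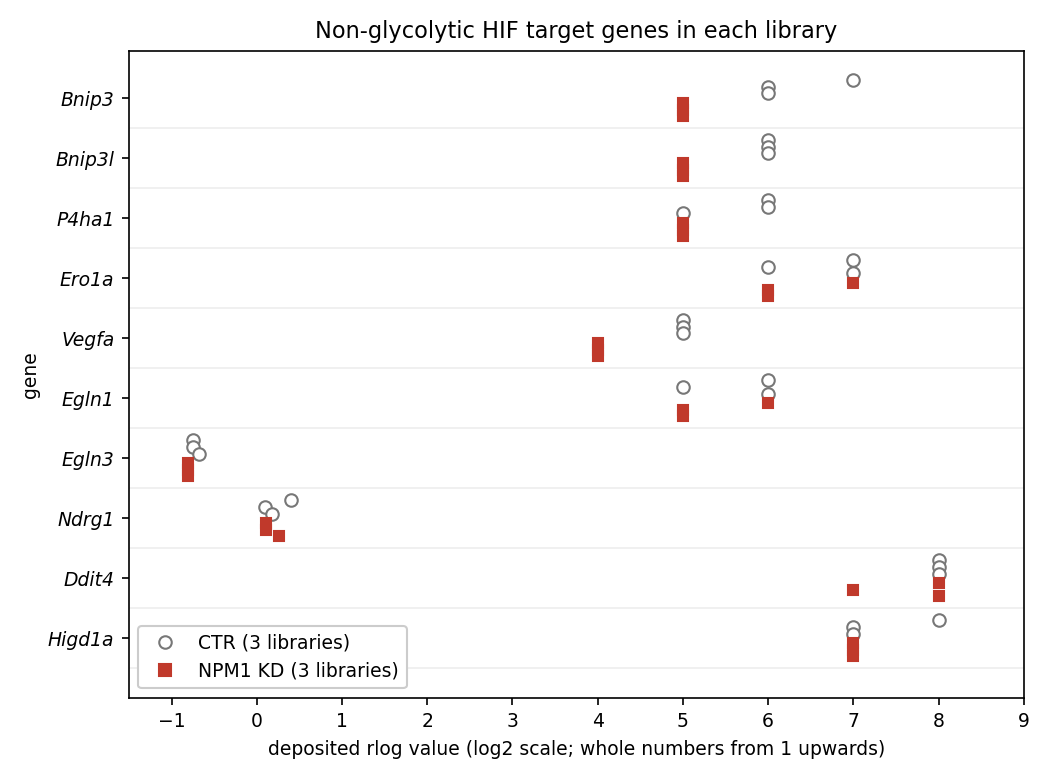
Deposited rlog values (log2 scale) of the 10 HIF target genes, with 1 open circle per CTR library and 1 red square per NPM1 KD library, offset vertically. *Bnip3*, *Bnip3l* and *Vegfa* show all 3 squares to the left of all 3 circles at whole-number steps, while *Egln3* and *Ndrg1* lie below 1.

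**Figure D3:**
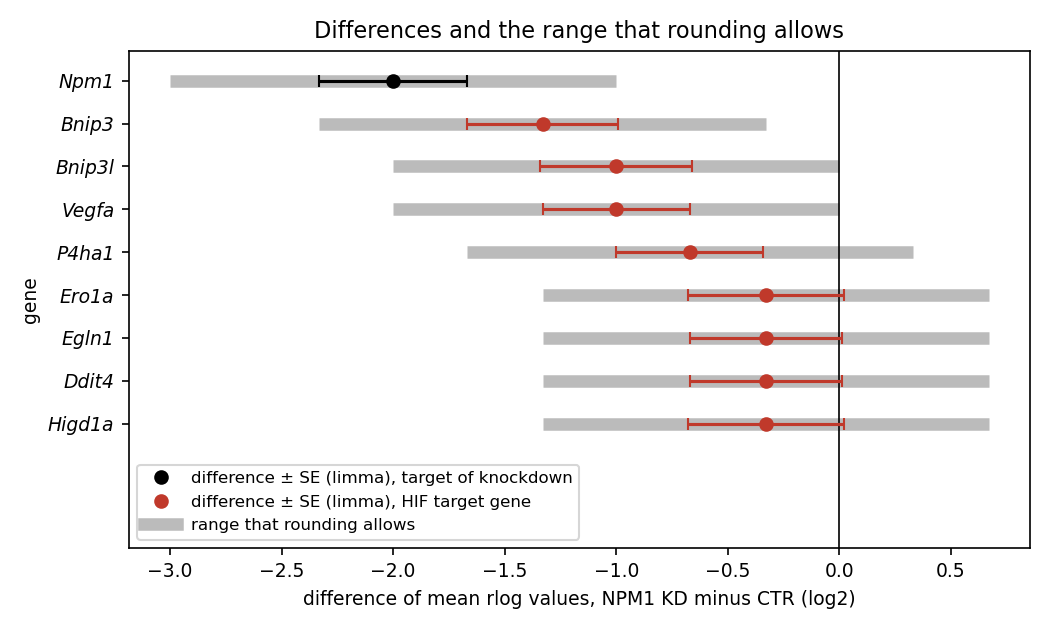
Difference of mean rlog values, NPM1 KD minus CTR (log2), with SE from limma as error bars and the range that rounding allows as grey bands, for *Npm1* and the 8 tested HIF target genes. The bands of *Npm1* (−3 to −1) and *Bnip3* (−2.33 to −0.33) lie below 0, those of *Bnip3l* and *Vegfa* end at 0, and the other 5 cross it.

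Averaged over the 8 genes, the libraries stood at 6.62, 6.12 and 6.25 in CTR and at 5.88, 5.50 and 5.62 in NPM1 KD. The highest knockdown library was thus below the lowest control library, while the mean over all tested genes was 5.31 in each CTR library and 5.27 to 5.30 in NPM1 KD. The median difference was −0.5 over the 8 genes and 0 over all 5752 tested genes. All 8 genes had a difference below 0, against 27.4% of the tested genes, and 3 of the 8 had groups that did not overlap on the lower side, against 3.41%. No member had groups apart on the higher side, against 2.19%, and 3 of the 8 had a difference of −1 or lower, against 3.79%. Values were the same in all 6 libraries for 0 of the 8, against 40.2%, and the same within each group for 2, against 45.4%. In the fit over all genes 1 of the 8, *Bnip3*, was called lower, against 0.417%, and 0 were called higher, against 0.0695%. Because the genes were picked on this contrast, nothing is read from these counts. The call of *Bnip3* was lost when any 1 of the 6 libraries was left out, with differences of −1.5 to −1.

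**Figure D4:**
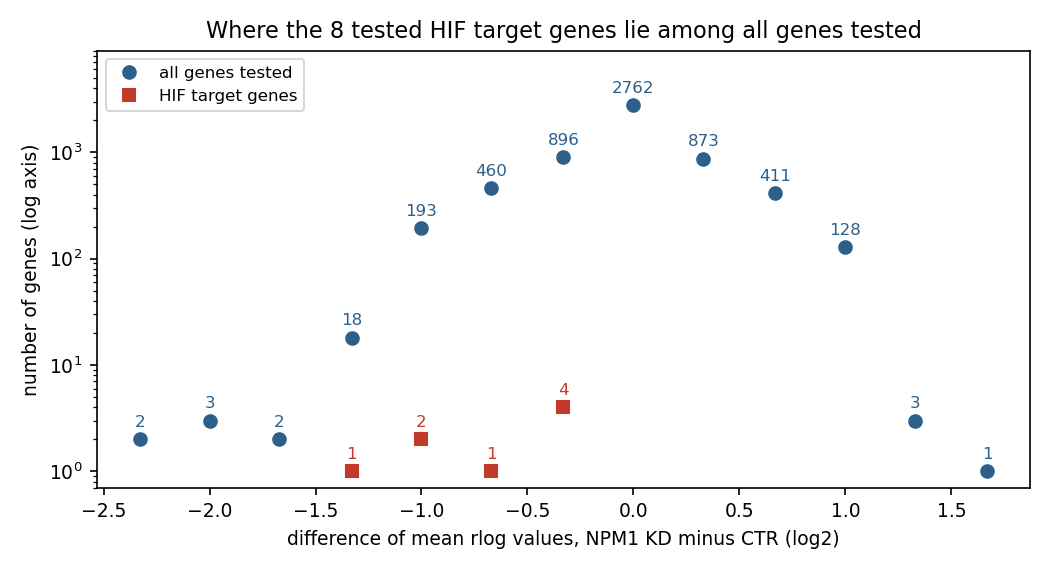
Number of tested genes (log axis) at each difference of mean rlog values, NPM1 KD minus CTR, for all 5752 genes (blue circles) and for the 8 HIF target genes (red squares), with the numbers printed at the points. All 8 squares lie between −1.33 and −0.33, and 2762 genes lie at 0.

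With whole numbers and 3 libraries a group, few patterns are possible, and many genes share one. The step from 6 to 5 of *Bnip3l* and that from 5 to 4 of *Vegfa* form the same pattern, a difference of −1 with no spread, which 171 other tested genes showed. The pattern of *Bnip3* was shared by 6 other genes and that of *P4ha1* by 99. Of all tested non-members, 171 tied as closest to the mean centred profile of the 8 genes over the 6 libraries (Euclidean distance 0.61). The 5 most abundant of these by the authors' mean were *Rplp1*, *Mif*, *Gm12671*, *Rpl10-ps3* and *Rpl10-ps6*, each at 11 in CTR and 10 in NPM1 KD, and 3 of them are ribosomal protein genes or their pseudogenes by name.

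The 9 lists of related genes, chosen with earlier results known, held 138 genes other than the 10, of which 79 were tested. Of these, 25 had a lower mean in NPM1 KD, 36 an equal and 18 a higher one, with a median difference of 0, as over all genes. Limma called 1 of the 79 lower, *Anxa2*, and 0 higher, while 11 were lower and 4 higher at an unadjusted p under 0.05. Over all 5752 genes 464 were lower and 349 higher by that measure.

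Of 12 tested genes that control HIF, 1 had a lower, 6 an equal and 5 a higher mean, with 0 called in either direction and 1 in each direction at an unadjusted p under 0.05. *Hif1a*, the alpha subunit, was at 4 in all 6 libraries. *Arnt* and *Vhl* had equal group means, and *Epas1* and *Arnt2* were listed at 0. *Cited2*, which competes with HIF for the coactivators CBP and p300, was at 3 in each CTR library and at 4 in each NPM1 KD library (difference 1, SE 0.39, limma adjusted p = 0.166). *Os9*, which encodes an ER lectin, was at 5 in each CTR library and at 4, 5 and 4 in NPM1 KD (−0.67, SE 0.33, limma adjusted p = 0.33).

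Among 22 tested HIF target genes outside glycolysis that are not among the 10, 12 had a lower, 9 an equal and 1 a higher mean, with a median of −0.33. Here 1 gene was called lower and 0 higher, and 8 were lower and 0 higher at an unadjusted p under 0.05. Over all 5752 tested genes 27.4% had a lower mean and 0.417% were called lower. At an unadjusted p under 0.05, 464 of the 5752 were lower and 349 higher. *Anxa2*, which encodes a calcium-dependent membrane-binding protein, was at 8, 7 and 7 in CTR and at 6 in each NPM1 KD library (difference −1.33, SE 0.35, limma adjusted p = 0.026). Its call was lost when any 1 library was left out (adjusted p of 0.0796 without CTR replicate 3 to 0.245 without CTR replicate 1), and also without the filter (0.0678), without the variance allowance for rounding (0.208) and with the replicate block (0.167). In 5 further genes each NPM1 KD library was lower by 1 without passing the test, namely *Car12*, *Fam162a*, *Loxl2* and *Mif* (limma adjusted p = 0.0791 each) and *Ccng2* (limma adjusted p = 0.166). They were named after their values were seen. Groups lay apart on the lower side in 6 of the 22 genes, against 3.41% of all tested genes. This list too was chosen with earlier results of these data known, so nothing is read from any of its counts. The same value in all 6 libraries was seen for *Kdm3a*, *Gys1*, *Insig2*, *Wsb1*, *Hmox1*, *Tfrc* and *Hilpda*, and 7 of the 44 genes of the list were listed at 0.

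**Figure D5:**
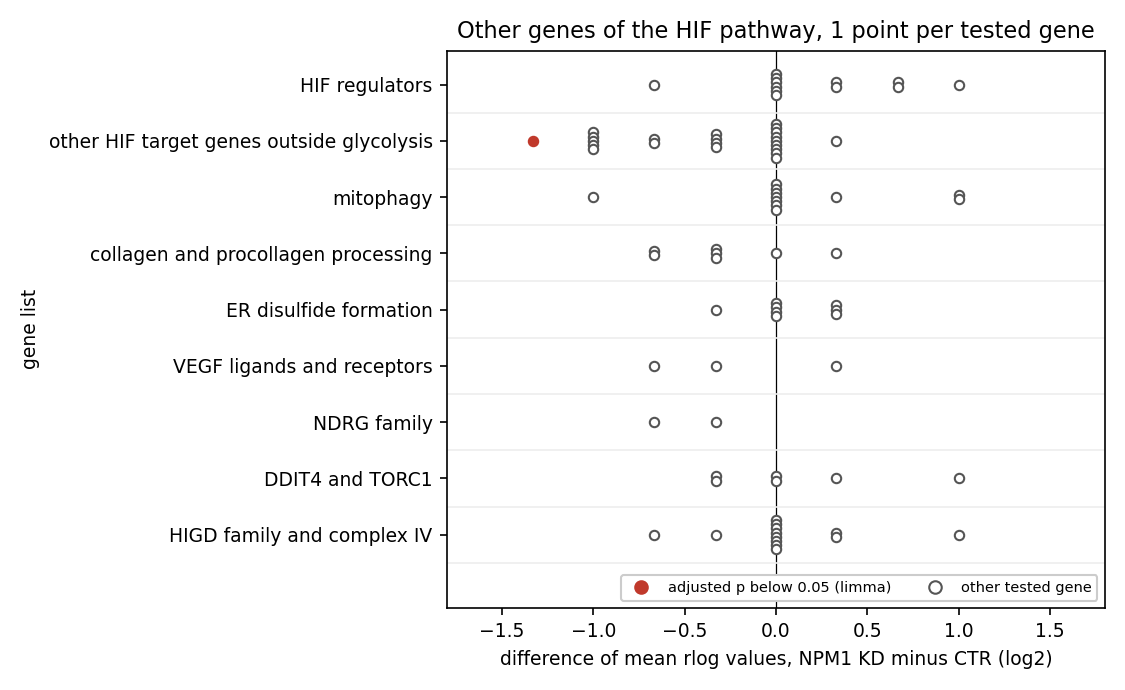
Difference of mean rlog values, NPM1 KD minus CTR (log2), for the tested genes of the 9 lists, 1 point per gene and list. The filled point is *Anxa2* (−1.33), the 1 gene with an adjusted p below 0.05, and open points are the other tested genes.

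Of 11 tested mitophagy genes 1 had a lower, 7 an equal and 3 a higher mean, and 0 were called (1 lower and 2 higher at an unadjusted p under 0.05). *Sqstm1*, the autophagy adaptor p62, was at 7 in each CTR library and at 8 in each NPM1 KD library (difference 1, SE 0.35, limma adjusted p = 0.0791). *Rheb*, the GTPase that turns on TORC1, was at 6 in each CTR library and at 7 in each NPM1 KD library, with the same difference and adjusted p. *Bcl2l1*, an anti-apoptotic gene of the BCL2 family, was at 5 in each CTR library and at 4 in each NPM1 KD library (difference −1, SE 0.33, limma adjusted p = 0.0791). The genes of the LC3 and GABARAP proteins, to which the receptors bind (*Map1lc3a*, *Map1lc3b*, *Gabarap*, *Gabarapl1* and *Gabarapl2*), each had 1 value in all 6 libraries.

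In the collagen list 5 of 7 tested genes had a lower, 1 an equal and 1 a higher mean, with a median of −0.33 and 0 called (1 lower and 0 higher at an unadjusted p under 0.05). *Plod3*, a lysyl hydroxylase, was at 5, 5 and 4 in CTR and at 4 in each NPM1 KD library (−0.67, SE 0.33, limma adjusted p = 0.33). *Crtap*, part of the prolyl 3-hydroxylation complex, was at 4 in each CTR library and at 4, 3 and 3 in NPM1 KD (−0.67, SE 0.37, limma adjusted p = 0.396). *P4ha2*, the paralog of *P4ha1*, was at 7, 6 and 6 in CTR and at 6 in each NPM1 KD library (−0.33, SE 0.34). *P4hb*, the shared beta subunit, was at 7 in all 6 libraries.

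The ER disulfide list had 8 tested genes, 1 lower, 4 equal and 3 higher in the mean, and 0 called (0 in either direction at an unadjusted p under 0.05). *Pdia3* (0.33) and *Qsox1* (−0.33) had the largest differences by the naming rule (limma adjusted p = 0.713 for both), and *Ero1b*, the paralog of *Ero1a*, was too low to be tested. Of the VEGF ligands and receptors 3 were tested, 2 with a lower and 1 with a higher mean, and 0 were called (0 at an unadjusted p under 0.05). *Pgf*, placental growth factor, was at 4, 4 and 3 in CTR and at 3 in each NPM1 KD library (−0.67, SE 0.40, limma adjusted p = 0.47). *Nrp1*, a coreceptor, differed by 0.33, and the receptor genes *Flt1*, *Kdr* and *Flt4* were listed at 0 in every library.

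Among the paralogs of *Ndrg1*, *Ndrg2* was at 4, 3 and 4 in CTR and at 3 in each NPM1 KD library (−0.67, SE 0.40, limma adjusted p = 0.47). *Ndrg3* differed by −0.33, and *Ndrg4* was too low to be tested, so 2 of 2 tested genes had a lower mean, with 0 called (0 at an unadjusted p under 0.05). Around *Ddit4*, 6 tested genes of the TORC1 pathway split into 2 lower, 2 equal and 2 higher in the mean, with 0 called and 1, *Rheb*, higher at an unadjusted p under 0.05. *Deptor*, a TORC1 inhibitor, was at 5 in every library but 1 (−0.33). *Mtor* and *Rptor* each kept 1 value in all 6 libraries.

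Of 13 tested genes of the HIGD family and of cytochrome c oxidase (complex IV), 2 had a lower, 8 an equal and 3 a higher mean, with 0 called and 1 higher at an unadjusted p under 0.05. That gene was *Cox4i1*, the common form of subunit 4, at 9 in each CTR library and 10 in each NPM1 KD library (1, SE 0.33, limma adjusted p = 0.0791). *Cox4i2*, the form of the same subunit known as inducible by hypoxia, was at 4, 4 and 3 in CTR and at 3 in each NPM1 KD library (−0.67, SE 0.40, limma adjusted p = 0.47). *Higd2a*, the paralog of *Higd1a*, was at 6 in all 6 libraries, and *Higd1b* and *Higd1c* were listed at 0.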

How the data were processed

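Long-read cDNA libraries from 3 CTR and 3 NPM1 KD samples of N2a cells were analysed. The authors deposited rlog values, a log2-scale score for every gene in each library, and their own comparison, with the mean normalized count (also read as a score), log2 fold change, SE, statistic, p-value and adjusted p-value. Of the latter file the deposited mean alone was used. The submitters' processing notes name minimap2, featureCounts, DESeq2 and the build GRCm39, with versions and annotation not given in the sources used here. Total reads per library are unknown.

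Of 26913 rows, 257 repeated an Ensembl ID with the same values and were dropped. Genes whose rlog values averaged 3.32 or more entered limma (version 3.58.1, R 4.3.3), in a fit by lmFit and eBayes with the intensity trend on and two-sided tests, Benjamini-Hochberg adjusted over 5752 genes, at a threshold of 0.05. Variances below 0.0833, that of rounding to whole numbers, were raised to this value, a choice first made after the rounding had been seen. The fit was tested on simulated data with planted changes larger than any difference of the 10 genes, so that test does not cover changes of their size. The 10 genes and all lists were chosen with earlier results of these data known, and *Ero1l* was matched to *Ero1a* by its older symbol.

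Named genes are the 10 members, *Npm1*, paralogs, the 5 genes nearest in profile, and from each list the genes called or else the 2 largest differences (ties by the authors' mean count). Other names were chosen after values were seen. Relative depths came from genes whose mean normalized count is that of 1 read, and were tied to libraries by genes with 2 or 3 reads. The 4 and 8 reads of *Egln3* and *Ndrg1* were solved to a tolerance of 1e-06. Promoters were RefSeq's on GRCm38.p6. Exons and shared words of 31 bases were taken from GENCODE vM21, on the same assembly, and no coordinate was set against the deposited tables. Alternatives are given in the closing section.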

Additional observations from a re-analysis of the deposited data

How the results depend on the processing

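Alternatives that change the test alone cannot move a difference of means, so the members were followed through the others. With a library left out, *Bnip3l* and *Vegfa* stayed at −1, *Bnip3* ranged from −1.5 to −1, *P4ha1* from −1 to −0.5, *Ero1a* and *Egln1* from −0.67 to −0.17, and *Ddit4* and *Higd1a* from −0.5 to 0. The median of −0.5 ranged from −0.75 to −0.42 over these fits, was −0.48 with centred libraries and −1 with group medians in place of means, and was −0.33 over the 7 members left by the stricter filter, which removed *Vegfa*. The numbers of calls depended on the fit. Against 4 higher and 24 lower genes, and 0 higher and 1 lower among the listed pathway genes, limma without the variance allowance gave 123 and 178, and 4 and 6, where the 6 did not include *Anxa2*. Without the intensity trend it gave 132 and 218, and 4 and 7. Without the filter on low values, which brought 14776 genes into the test, it gave 1 and 10, with 0 list genes called. Leaving out each library in turn gave 0 to 2 higher and 5 to 9 lower, and 0 to 0 list genes in either direction, from fewer samples. *Bnip3* was called with the stricter filter, with centred libraries and without the trend, but not without the allowance, where *Bnip3l* and *Vegfa* were called, and without the trend these 2 were called as well. No member was called without the filter, with the block or with a library left out. Why calls differed between these fits was not tested. The fit with the replicate number as a replicate block gave 1 higher and 7 lower genes and 0 list genes. Same-numbered libraries correlated in their deviations at 0.009, 0.001 and 0.03, below 0.1 in each pair. With values rounded to whole numbers, this cannot show whether same-numbered libraries shared a passage or a transfection, and that was not tested. Rounding to whole numbers limits what depth could otherwise show, and genes with few reads, such as *Egln3* and *Ndrg1*, cannot be compared.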
